A study of Mus musculus with 16 samples.

Results

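The extracellular matrix of a tissue is cut, protected and hardened by a few enzyme families, and 51 genes of these families were followed in thyroid glands from mice with and without GLIS3 in their follicular cells. The 51 genes are all rows of a count table of 25611 entries whose symbol is *Mmp*, *Timp*, *Adamts*, *Lox* or *Loxl* with a number, that is 23 matrix metalloproteinases, 4 tissue inhibitors of metalloproteinases, 19 ADAMTS proteases and 5 lysyl oxidases. The rows were picked by gene symbol, but the families were chosen with earlier results of these data known. Of the 51, 42 had enough counts to be tested, among 16630 genes tested in all. RNA-Seq had been carried out on 16 female mice in 4 groups of 4. WT(ND) and WT(LID) were wild-type mice fed a normal diet (ND) or a low iodine diet (LID), and *Glis3*-Pax8Cre(ND) and *Glis3*-Pax8Cre(LID) were the conditional knockouts on the same diets. All were of strain C57BL/6, 1 month old by the labels and 4 weeks by the study's methods, weaned at 3 weeks and kept 6 days on the diet. The knockouts carry the *Glis3* allele tm2Amj and, in *Pax8*, the allele tm1.1(cre)Mbu, on a B6 and 129 background by the labels, so that a Cre gene placed in the *Pax8* locus removes exon 5 of *Glis3*. This Cre acts in cells that express *Pax8*, which in the thyroid are the follicular cells. By this design the vessels, fibroblasts and immune cells of the gland should keep an intact *Glis3* gene, which was not measured in them.

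Matrix metalloproteinases (MMPs) are zinc enzymes, some secreted and some held on the cell surface, that cut collagens, gelatin, elastin and other matrix proteins. ADAMTS enzymes are secreted relatives with thrombospondin repeats, and different members cut proteoglycans such as versican and aggrecan, trim the amino ends of procollagens, or act on fibrillin, cartilage oligomeric matrix protein and von Willebrand factor. The TIMPs bind and block these proteases. Lysyl oxidases oxidise lysines of collagen and elastin, which lets the fibres crosslink. In the thyroid, each follicle rests on a basement membrane in a dense net of capillaries, and a shortage of iodine raises thyroid stimulating hormone (TSH), under which the gland enlarges and its vessels expand.

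Values are in CPM, the usual read counts per 1e+06 counts, of the TMM-scaled library size, with replicates 1 to 4 in that order or as the mean ± SD of a group of 4 mice. A gene was called in a comparison at a Benjamini-Hochberg adjusted p under 0.05 from edgeR's quasi-likelihood test, fitted to the 16 mice together and adjusted over all 16630 genes. Between 13892352 and 461077969 counts per mouse fell on genes, and the thyroglobulin gene *Tg* alone took from 7.87% to 29.3% of them. A gene without counts may still have had up to 3, which is 0.00651 CPM in the deepest library and 0.216 CPM in the shallowest before TMM scaling, and this limit covers counting error only. The log2 fold change of *Glis3* was 0.08 (SE 0.19, edgeR adjusted p = 0.810) in *Glis3*-Pax8Cre(LID) mice against WT(LID). The thyroid genes *Tg* and *Slc5a5* had counts in every mouse, as thyroid tissue should have. Whole-gene counts do not separate exon 5, so the deletion was not visible in them. *Glis3*-Pax8Cre(ND) replicate 4 stood farthest from its group, and its 6 summed thymocyte markers came to 2214 CPM, against 256 CPM or less in every other mouse. In whole glands, fewer cells of a type and less RNA per cell cannot be told apart.

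Under LID most members with a called difference were lower in the knockout. Of the 42 members tested, 25 were lower and 4 were higher in *Glis3*-Pax8Cre(LID) mice than in WT(LID), when 15.4% of all genes were lower and 14.9% were higher. The median log2 fold change was -0.73 over the members and 0.01 over all genes. The 25 included all 5 lysyl oxidases, 5 of 7 ADAMTS proteoglycanases and 5 of 7 membrane-bound MMPs. The 15.4% and 14.9% are also the shares to set beside the family counts under LID given further on. The 4 that were higher were *Mmp9*, *Mmp16*, *Adamts13* and *Adamts15*, of which 2 were called without any 1 of WT(LID) replicates 1, 2 and 4 and *Glis3*-Pax8Cre(LID) replicates 3 and 4. With the diet in wild-type mice, most called members were higher. In WT(LID) against WT(ND), 20 members rose and 6 fell, beside 20.9% and 20.8% of all genes, with a median of 0.65 against -0.03. The 6 that fell were 3 without WT(ND) replicate 1 or WT(LID) replicate 2. These comparisons share the WT(LID) mice, so their values are set side by side and no relation between them was computed.

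**Figure D1:**
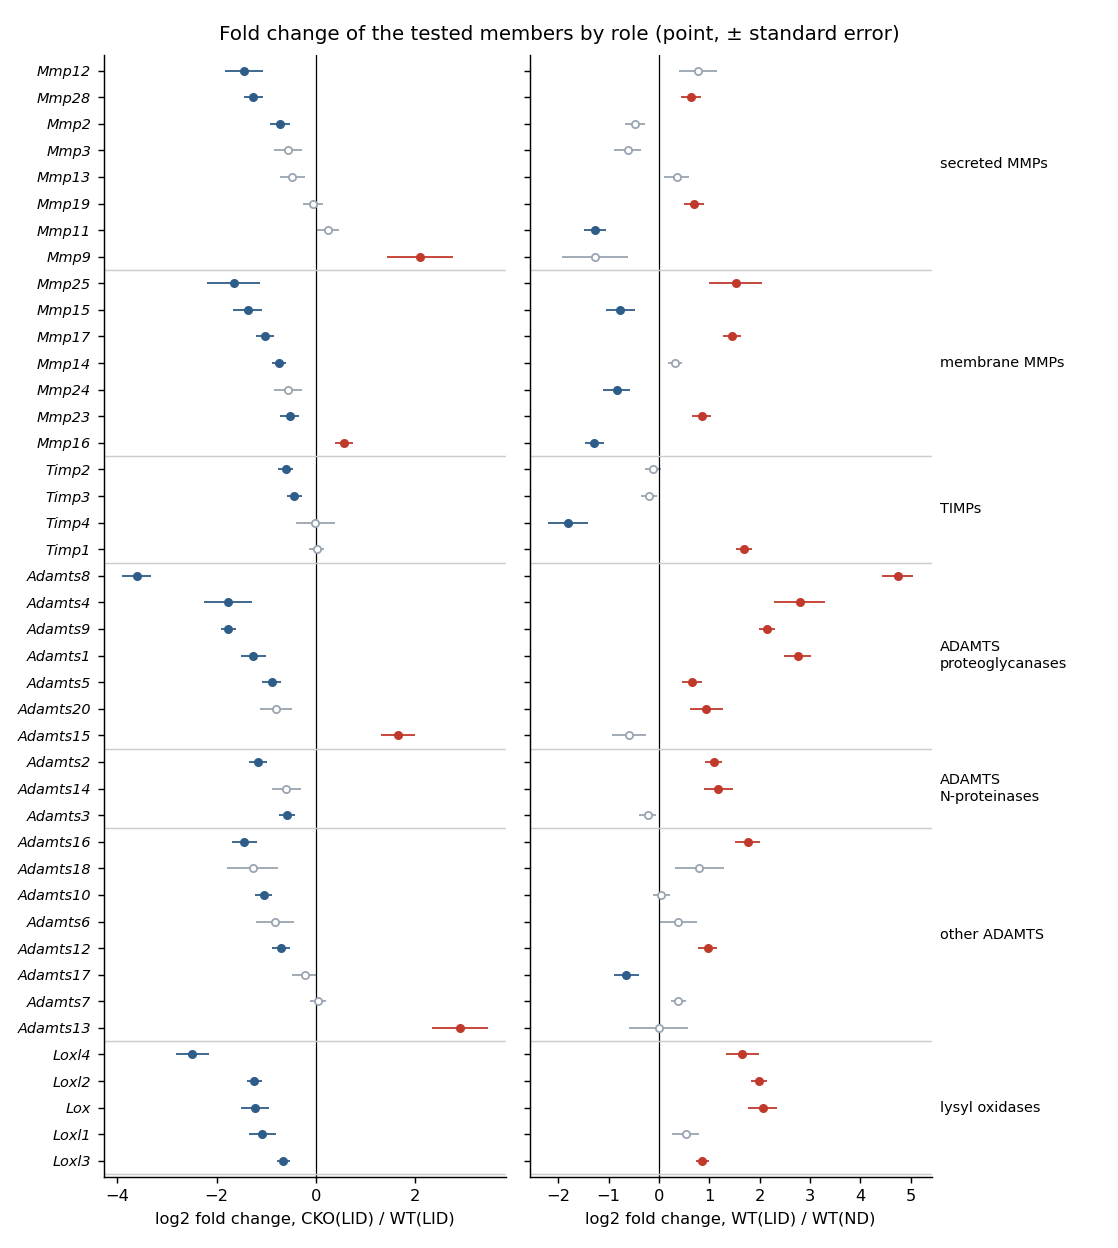
Log2 fold change of the 42 tested members, grouped by role, in *Glis3*-Pax8Cre(LID) against WT(LID) (left) and in WT(LID) against WT(ND) (right); points are the edgeR estimates, bars their standard errors, filled red points were called higher, filled blue points lower and open grey points were not called, and CKO stands for *Glis3*-Pax8Cre. On the left 25 points are filled blue and 4 red, and on the right 20 are red and 6 blue.

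On the normal diet fewer members were called. In *Glis3*-Pax8Cre(ND) against WT(ND), 7 members were lower and 2 higher, beside 9.25% and 10.3% of all genes, with a median log2 fold change of -0.04 over the members. The 2 that were higher, *Timp1* and *Adamts1*, were 1, *Timp1*, without any 1 of the 8 mice named with *Adamts1* further on. With the diet in the knockout, 7 members rose and 5 fell in *Glis3*-Pax8Cre(LID) against *Glis3*-Pax8Cre(ND), beside 13.1% and 12.3% of all genes. The 7 were 4 without *Glis3*-Pax8Cre(ND) replicate 3. The interaction, which is the diet response of the knockout less that of the wild type, was negative for 11 members and positive for 1, beside 7.41% and 4.43% of all genes. The 1 was 0 without WT(LID) replicate 3 and 2 without replicate 4 of WT(ND) or of *Glis3*-Pax8Cre(ND). The interaction had a median of -0.53 over the members and -0.01 over all genes. With library size as the only scaling, the median of all genes shifted to 0.16 in the LID genotype comparison, 0.14 in the ND genotype comparison, -0.18 in the wild-type diet comparison and -0.17 in the knockout diet comparison. The calls over all genes then split into 4121 higher and 1841 lower, 2722 and 935, 2434 and 5203, and 1297 and 3385 in that order, while the members split into 4 and 22, 2 and 7, 16 and 8, and 5 and 6.

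Markers of endothelial cells and of pericytes and smooth muscle moved with these results, and fibroblast markers did so only in part. Summed over 6 endothelial markers, the level ranged over 466 to 587 CPM in WT(ND), 601 to 839 CPM in *Glis3*-Pax8Cre(ND), 1233 to 1397 CPM in WT(LID) mice and 557 to 717 CPM in *Glis3*-Pax8Cre(LID). For 6 pericyte and smooth muscle markers the ranges were 397 to 506, 518 to 711, 917 to 1401 and 472 to 679 CPM, and for 6 fibroblast markers 602 to 827, 285 to 584, 1119 to 1314 and 407 to 726 CPM, in the same order. In *Glis3*-Pax8Cre(LID) mice against WT(LID), 4 of 6 endothelial, 6 of 6 pericyte and smooth muscle and 2 of 6 fibroblast markers were lower, the 2 being *Col1a1* and *Col1a2*, and 0 were higher. With the diet in wild types 5, 5 and 2 of these lists rose and 0, 0 and 2 fell. *Col1a1* and *Col1a2*, which are also substrates of the lysyl oxidases, made up most of the fibroblast sum in WT(LID), with means of 468 and 500.3 CPM, and they were the 2 that rose, while *Dcn* and *Pdgfra* fell. Each of these 18 markers had counts in every mouse. Of other lists, 6 of 6 macrophage and 2 of 3 tested cartilage markers were higher in *Glis3*-Pax8Cre(ND) against WT(ND), and 2 of 4 adipocyte markers were lower. With the diet, 3 of 4 adipocyte markers fell in wild types, and 3 of 3 parathyroid markers fell in both genotypes. Summed skeletal muscle markers differed widely between mice, from 1.29 CPM in a WT(LID) mouse to 1055 CPM in a *Glis3*-Pax8Cre(ND) mouse. WT(LID), the group in which 20 members had risen over WT(ND), was also the group with the highest vessel markers. The part of these cells in the differences of the members was not tested.

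Of 7 ADAMTS proteoglycanases tested, 6 rose with the diet in wild types, and 5 were lower and 1 higher in *Glis3*-Pax8Cre(LID) mice than in WT(LID). *Adamts8*, an enzyme of the versican and aggrecan cutting group, was close to silent in 3 of the 4 groups. It was measured at 0.449, 0.352, 0.311 and 0.506 CPM in WT(ND) mice, 0.565, 0.387, 0.343 and 0.821 CPM in *Glis3*-Pax8Cre(ND) mice, 12.2, 9.36, 10.3 and 12.0 CPM in WT(LID) mice and 0.855, 1.12, 1.09 and 0.510 CPM in *Glis3*-Pax8Cre(LID) mice. All 4 WT(LID) mice lay above 9 CPM and the other 12 mice at 1.12 CPM or less. *Adamts8* rose 26.7-fold with the diet in the wild type (log2 fold change 4.74, SE 0.31, edgeR adjusted p = 3.54e-08) and was 12.2-fold lower in *Glis3*-Pax8Cre(LID) mice than in WT(LID) (log2 fold change -3.61, SE 0.30, edgeR adjusted p = 4.14e-07). Its diet response in the knockout was a log2 fold change of 0.78 (SE 0.29, edgeR adjusted p = 0.0586), and the interaction was -3.96 (SE 0.41, edgeR adjusted p = 1.86e-05). The *Adamts8* response in the knockout was called by DESeq2 (adjusted p = 0.0249), without *Glis3*-Pax8Cre(ND) replicate 4, the mouse with the high thymocyte markers (1.13, adjusted p = 0.00707), and without *Glis3*-Pax8Cre(LID) replicate 4 (0.97, adjusted p = 0.0201). Of the *Adamts8* exon bases, 13.5% are shared with the gene model Gm29724, whose reads cannot be told apart here.

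*Adamts9*, which cuts versican and aggrecan, was also highest in WT(LID). It stood at 11.7, 11.1, 10.4 and 13.9 CPM in WT(ND) mice, 11.8, 12.1, 8.99 and 10.7 CPM in *Glis3*-Pax8Cre(ND) mice, 42.8, 58.5, 58.1 and 49.5 CPM in WT(LID) mice and 14.4, 16.2, 18.9 and 11.8 CPM in *Glis3*-Pax8Cre(LID) mice. The WT(LID) mice lay clear of every other mouse. Its log2 fold change was 2.15 (SE 0.15, edgeR adjusted p = 7.07e-08) for the diet in wild types and -1.76 (SE 0.15, edgeR adjusted p = 6.87e-07) for the genotype under LID, with an interaction of -1.65 (SE 0.21). The knockout response, 0.50 (SE 0.15, edgeR adjusted p = 0.0237), was no longer called with mice of the same number paired (adjusted p = 0.0853), nor without any 1 of *Glis3*-Pax8Cre(ND) replicate 3 and *Glis3*-Pax8Cre(LID) replicates 2 and 3 (adjusted p 0.0549 to 0.0838). *Adamts1*, a secreted protease that cuts versican and whose thrombospondin repeats can bind VEGF, was the most abundant ADAMTS gene per exon length, at 13.1 CPM per kb over the 16 mice. It was measured at 14.3, 18.7, 26.6 and 23.4 CPM in WT(ND) mice, 28.4, 41.5, 29.6 and 43.7 CPM in *Glis3*-Pax8Cre(ND) mice, 87.0, 145, 190.3 and 140.5 CPM in WT(LID) mice and 40.4, 75.8, 65.4 and 53.8 CPM in *Glis3*-Pax8Cre(LID) mice. The lowest WT(LID) mouse was above the highest mouse of each other group. The diet raised it 6.77-fold in the wild type (log2 fold change 2.76, SE 0.27, edgeR adjusted p = 2.29e-06), and it was 2.39-fold lower in *Glis3*-Pax8Cre(LID) mice than in WT(LID) (log2 fold change -1.26, SE 0.26, edgeR adjusted p = 0.00181).

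On ND the order of the genotypes was the opposite for *Adamts1*, which was 1.73-fold higher in *Glis3*-Pax8Cre(ND) than in WT(ND) (log2 fold change 0.79, SE 0.26, edgeR adjusted p = 0.0439). This ND call was lost without any 1 of WT(ND) replicates 1, 2 and 4, *Glis3*-Pax8Cre(ND) replicates 2 and 4, WT(LID) replicates 2 and 4 and *Glis3*-Pax8Cre(LID) replicate 4 (adjusted p 0.0528 to 0.114). The interaction for *Adamts1* was -2.05 (SE 0.36, edgeR adjusted p = 0.00208). With the knockout mice of the same number paired, its knockout diet response was called (log2 fold change 0.70, SE 0.14, adjusted p = 0.0140), against an adjusted p of 0.0533 without pairing. *Adamts4*, known as an aggrecanase, was measured at 2.06, 2.51, 3.56 and 1.01 CPM in WT(ND) mice, 2.95, 5.17, 2.16 and 1.57 CPM in *Glis3*-Pax8Cre(ND) mice, 7.98, 17.5, 25.3 and 12.4 CPM in WT(LID) mice and 2.55, 6.77, 6.35 and 2.78 CPM in *Glis3*-Pax8Cre(LID) mice. WT(LID) mice lay above the others, with the highest of them 3.17 times the lowest. *Adamts4* rose with the diet in the wild type (log2 fold change 2.80, SE 0.51, edgeR adjusted p = 5.24e-04) and was lower in *Glis3*-Pax8Cre(LID) (-1.77, SE 0.49, edgeR adjusted p = 0.0127), with an interaction at -2.17 (SE 0.68, edgeR adjusted p = 0.0535) that missed the threshold. The *Adamts4* interaction was called with the replicate number as a block over the 16 mice (-2.23, adjusted p = 0.00656) and by DESeq2 (adjusted p = 0.00643), and without any 1 of WT(ND) replicate 3, *Glis3*-Pax8Cre(ND) replicate 4, WT(LID) replicate 1 and *Glis3*-Pax8Cre(LID) replicate 2 (adjusted p 0.0353 to 0.0468).

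*Adamts15*, another enzyme that cuts versican, was higher in the knockout under LID. It was measured at 15.2, 12.7, 28.5 and 6.53 CPM in WT(ND) mice, 15.2, 21.6, 26.0 and 14.2 CPM in *Glis3*-Pax8Cre(ND) mice, 10.6, 12.0, 10.3 and 8.84 CPM in WT(LID) mice and 27.1, 34.8, 42.6 and 27.0 CPM in *Glis3*-Pax8Cre(LID) mice. Under LID every knockout mouse lay above every wild-type mouse, while on ND the groups overlapped. *Adamts15* was 3.16-fold higher in *Glis3*-Pax8Cre(LID) mice than in WT(LID) (log2 fold change 1.66, SE 0.34, edgeR adjusted p = 0.00211). Its knockout diet response, 0.77 (SE 0.34, edgeR adjusted p = 0.108), was called with paired mice (log2 fold change 0.78, SE 0.11, adjusted p = 0.00287). *Adamts15* and *Adamts8* are neighbours on chromosome 9 of mm10, on opposite strands and 20109 bases apart, and were called in opposite directions under LID. *Adamts5*, an aggrecanase that lies 55043 bases from *Adamts1* on chromosome 16, had log2 fold changes of 0.65 for the wild-type diet response and -0.89 for the genotype under LID, both called. *Adamts20*, a relative of *Adamts9*, rose with the diet in wild types (0.94, edgeR adjusted p = 0.0294), a call that was lost without any 1 of WT(ND) replicates 2 and 3 and WT(LID) replicates 1 and 3 (adjusted p 0.0602 to 0.0789).

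**Figure D2:**
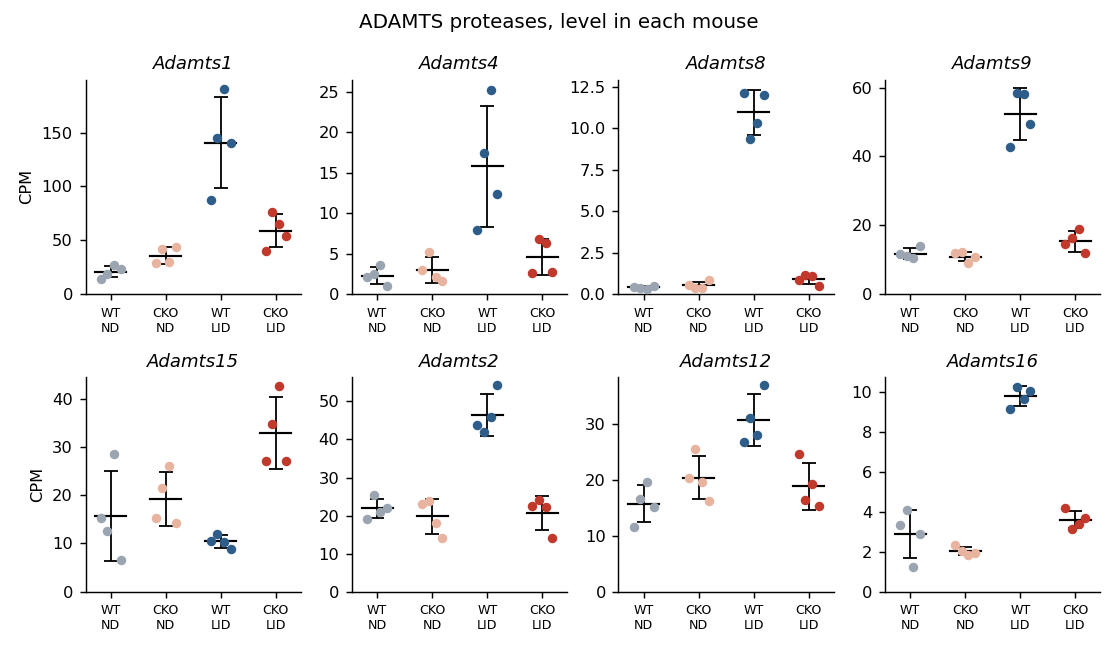
Level of 8 ADAMTS genes in CPM (linear vertical axis from 0) in each of the 16 mice, with horizontal bars at the mean and error bars of 1 SD of the 4 mice of a group; CKO stands for *Glis3*-Pax8Cre. In 7 of the 8 panels the WT(LID) mice are the highest group, from 9.36 to 12.2 CPM for *Adamts8*, and *Adamts15* is highest in *Glis3*-Pax8Cre(LID), from 27.0 to 42.6 CPM.

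The start of *Adamts1* is shown since it is the most abundant proteoglycanase and its window is 1 of the 6 member windows with the core of the cAMP response element. The line gives the 250 bases before the RefSeq start site on the strand of the gene (chr16:85803114-85803363, minus strand, GRCm38.p6), with that core (TGACG, from -170 to -166) and a TATA box (TATAAA, from -32 to -27) in capitals.
Adamts1: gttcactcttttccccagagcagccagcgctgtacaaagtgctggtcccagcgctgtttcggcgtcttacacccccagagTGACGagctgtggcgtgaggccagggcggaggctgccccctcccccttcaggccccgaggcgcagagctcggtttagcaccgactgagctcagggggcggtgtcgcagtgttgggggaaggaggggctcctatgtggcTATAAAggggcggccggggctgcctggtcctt
RefSeq windows were found for 33 of the 51 members. Those without a window included *Adamts8*, *Adamts4*, *Lox*, *Loxl1* and *Loxl2*, so the motif shares do not cover them. Both strands of 6 motifs were searched in windows of this length. TGACG was in 16.7% of the 36 member windows and in 17.8% of all 32851 windows, and the full element TGACGTCA was in 0 member windows and in 1.55% of all. The bases ACGTG, bound by hypoxia inducible factors and not set in capitals, were in 19.4% of member windows and 16.6% of all.

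Genes for procollagen N-proteinases, which remove the amino propeptide of fibrillar collagens, were lower in *Glis3*-Pax8Cre(LID) for 2 of 3 members. *Adamts2* was measured at 19.2, 25.3, 20.9 and 22.1 CPM in WT(ND) mice, 23.1, 23.8, 18.1 and 14.2 CPM in *Glis3*-Pax8Cre(ND) mice, 43.7, 41.9, 45.8 and 54.3 CPM in WT(LID) mice and 22.5, 24.0, 22.1 and 14.1 CPM in *Glis3*-Pax8Cre(LID) mice. All WT(LID) mice lay above the rest, and the other 3 groups overlapped. The log2 fold change was 1.08 (SE 0.18, edgeR adjusted p = 1.69e-04) for the wild-type diet response, -1.17 (SE 0.18, edgeR adjusted p = 1.34e-04) for the genotype under LID and 0.07 (SE 0.17, edgeR adjusted p = 0.814) for the knockout diet response. *Adamts14* was low, at 0.490, 0.543, 0.494 and 0.694 CPM in WT(ND) mice, 0.502, 0.551, 0.306 and 1.11 CPM in *Glis3*-Pax8Cre(ND) mice, 1.19, 1.12, 1.35 and 1.43 CPM in WT(LID) mice and 0.674, 1.01, 0.928 and 0.756 CPM in *Glis3*-Pax8Cre(LID) mice. WT(LID) mice were again the highest, just above *Glis3*-Pax8Cre(ND) replicate 4. *Adamts14* rose with the diet in the wild type (1.18, edgeR adjusted p = 0.00470), and its genotype difference under LID of -0.59 (SE 0.29, edgeR adjusted p = 0.144) was not called. *Adamts3*, which also activates the lymphatic growth factor VEGF-C, fell with the diet in the knockout (-0.95, SE 0.17, edgeR adjusted p = 8.74e-04) and was lower in *Glis3*-Pax8Cre(LID) mice than in WT(LID) (-0.58, SE 0.17, edgeR adjusted p = 0.0157).

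Of 8 other ADAMTS genes tested, 3 were lower and 1 higher in *Glis3*-Pax8Cre(LID) mice than in WT(LID). *Adamts16* was measured at 3.32, 4.06, 1.26 and 2.87 CPM in WT(ND) mice, 2.32, 2.05, 1.86 and 1.93 CPM in *Glis3*-Pax8Cre(ND) mice, 9.15, 10.2, 9.63 and 10.1 CPM in WT(LID) mice and 4.17, 3.16, 3.40 and 3.69 CPM in *Glis3*-Pax8Cre(LID) mice. The LID groups were separate from each other, and the WT(LID) mice stood above the other 12. It rose 3.39-fold with the diet in the wild type (log2 fold change 1.76, SE 0.25, edgeR adjusted p = 4.63e-05) and was 2.71-fold lower in *Glis3*-Pax8Cre(LID) mice than in WT(LID) (-1.44, SE 0.24, edgeR adjusted p = 3.68e-04). The smaller rise of *Adamts16* in the knockout (0.83, edgeR adjusted p = 0.0224) was not called without any 1 of *Glis3*-Pax8Cre(ND) replicate 3 and *Glis3*-Pax8Cre(LID) replicate 1 (adjusted p 0.0514 to 0.0550). *Adamts10*, whose product binds fibrillin microfibrils, stood at 25.2, 24.4, 21.6 and 24.1 CPM in WT(ND) mice, 18.8, 22.0, 16.9 and 33.1 CPM in *Glis3*-Pax8Cre(ND) mice, 26.7, 24.7, 20.7 and 26.1 CPM in WT(LID) mice and 13.5, 11.6, 9.75 and 12.7 CPM in *Glis3*-Pax8Cre(LID) mice. The *Glis3*-Pax8Cre(LID) mice lay below all others, and the wild-type groups overlapped. *Adamts10* fell with the diet in the knockout (-0.94, SE 0.17, edgeR adjusted p = 0.00116), while the wild-type value was 0.04 (SE 0.17, edgeR adjusted p = 0.864) and the interaction -0.98 (SE 0.24, edgeR adjusted p = 0.0149).

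*Adamts12*, which can cut cartilage oligomeric matrix protein, was measured at 11.7, 16.6, 19.6 and 15.1 CPM in WT(ND) mice, 20.4, 25.4, 19.6 and 16.2 CPM in *Glis3*-Pax8Cre(ND) mice, 26.7, 31.0, 27.9 and 37.0 CPM in WT(LID) mice and 24.6, 16.4, 19.2 and 15.3 CPM in *Glis3*-Pax8Cre(LID) mice. Each WT(LID) mouse lay above every WT(ND) and every *Glis3*-Pax8Cre(LID) mouse. The gene rose in the wild type (0.96, SE 0.18, edgeR adjusted p = 6.01e-04), and the interaction was -1.08 (SE 0.26, edgeR adjusted p = 0.0127). *Adamts17*, a fibrillin-associated member, was low at 1.14, 1.32, 1.16 and 1.30 CPM in WT(ND) mice, 1.00, 1.15, 1.48 and 1.73 CPM in *Glis3*-Pax8Cre(ND) mice, 0.417, 0.703, 1.04 and 0.975 CPM in WT(LID) mice and 0.583, 0.716, 0.668 and 0.721 CPM in *Glis3*-Pax8Cre(LID) mice. The LID mice of both genotypes lay below the ND mice of their own genotype. *Adamts17* fell with the diet in the knockout (-1.01, SE 0.25, edgeR adjusted p = 0.00909) and in the wild type (-0.65, SE 0.25, edgeR adjusted p = 0.0461), and the wild-type call was lost without any 1 of WT(ND) replicates 1, 2, 3 and 4, *Glis3*-Pax8Cre(ND) replicates 2 and 3, WT(LID) replicates 1 and 2 and *Glis3*-Pax8Cre(LID) replicates 1, 2, 3 and 4 (adjusted p 0.0519 to 0.126).

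*Adamts13* encodes the protease that cuts von Willebrand factor. It was under 1 CPM in every group mean and is described here because its values stood out, so it was chosen after they were seen. It reached 0.904 ± 0.273 CPM in *Glis3*-Pax8Cre(LID) and 0.116 ± 0.0796 CPM in WT(LID) mice, a log2 fold change of 2.91 (SE 0.56, edgeR adjusted p = 9.57e-04). Its rise from *Glis3*-Pax8Cre(ND) to *Glis3*-Pax8Cre(LID), 1.85 (SE 0.53, edgeR adjusted p = 0.0197), was not called without any 1 of *Glis3*-Pax8Cre(ND) replicate 2 and *Glis3*-Pax8Cre(LID) replicate 4 (adjusted p 0.0531 to 0.0678). *Vwf*, the gene of its substrate, was lower in *Glis3*-Pax8Cre(LID) mice than in WT(LID) (-1.53, SE 0.21, edgeR adjusted p = 5.98e-05). *Adamts7*, which can cut cartilage oligomeric matrix protein too, was called in 0 of the 5 comparisons (unadjusted p from edgeR under 0.05 in 1, and called by DESeq2 in 1, the wild-type diet response), with group means from 9.62 to 13.0 CPM. *Adamts18* was called in 0 too (unadjusted p under 0.05 in 1, and called by DESeq2 in 0), with group means of 0.471 CPM or less. *Adamts6* was called in 0 as well (unadjusted p under 0.05 in 3, and called by DESeq2 in 0), and its value of 10.5 CPM in *Glis3*-Pax8Cre(ND) replicate 4, the mouse with the high thymocyte markers, stood against 2.38 to 3.03 CPM in the other mice of that group. Without that mouse *Adamts6* was called lower in *Glis3*-Pax8Cre(LID) mice against WT(LID) (log2 fold change -0.84, adjusted p = 0.00525).

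All 5 lysyl oxidase genes were lower in *Glis3*-Pax8Cre(LID) mice than in WT(LID), and 4 of the 5 had risen with the diet in the wild type. *Loxl4* was the 1 lysyl oxidase called lower in the knockout on both diets. It was measured at 22.7, 19.7, 5.51 and 9.99 CPM in WT(ND) mice, 3.83, 2.48, 3.32 and 2.55 CPM in *Glis3*-Pax8Cre(ND) mice, 45.4, 53.6, 45.2 and 38.6 CPM in WT(LID) mice and 8.03, 7.55, 7.63 and 9.37 CPM in *Glis3*-Pax8Cre(LID) mice. The knockout mice lay below the wild-type mice of the same diet in both cases, and the WT(ND) mice varied 4.12-fold among themselves. *Loxl4* was 5.61-fold lower under LID (log2 fold change -2.49, SE 0.33, edgeR adjusted p = 6.16e-05) and 4.83-fold lower on ND (log2 fold change -2.27, SE 0.34, edgeR adjusted p = 5.01e-04). It still rose with the diet in both genotypes, by log2 fold changes of 1.66 (SE 0.32, edgeR adjusted p = 8.83e-04) in wild types and 1.44 (SE 0.33, edgeR adjusted p = 0.00613) in knockouts, and the interaction of -0.21 (SE 0.46, edgeR adjusted p = 0.814) was not called.

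The window before the start of *Loxl4* is shown since it and those of *Mmp11* and *Timp4* were the 3 member windows with the core TGGGGGGT of the site that GLIS proteins bind. This core was in 8.33% of the 36 member windows and in 1.36% of all 32851. In *Loxl4* it lies on the strand opposite to the gene, from -168 to -161 before the start site, sharing 1 base with a TGACG on that strand from -172 to -168. In *Mmp11* it lies on the strand of the gene from -46 to -39. Capitals mark these motifs in the 250 bases before each RefSeq start site (*Loxl4* chr19:42612807-42613056 and *Mmp11* chr10:75932503-75932752, both on the minus strand, GRCm38.p6). A match in letters is not evidence of binding, which was not measured in these libraries.
Loxl4: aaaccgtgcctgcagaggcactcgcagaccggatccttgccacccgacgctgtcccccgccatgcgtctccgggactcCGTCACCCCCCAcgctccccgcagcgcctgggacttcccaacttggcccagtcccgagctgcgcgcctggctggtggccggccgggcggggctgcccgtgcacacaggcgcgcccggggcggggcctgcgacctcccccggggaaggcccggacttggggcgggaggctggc
Mmp11: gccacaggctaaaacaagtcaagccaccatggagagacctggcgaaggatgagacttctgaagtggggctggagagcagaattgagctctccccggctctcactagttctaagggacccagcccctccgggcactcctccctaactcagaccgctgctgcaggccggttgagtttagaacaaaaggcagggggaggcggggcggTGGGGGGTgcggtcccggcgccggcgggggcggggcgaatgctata
*Mmp11* was called lower in the knockout on ND and not under LID, as described with the MMPs. *Timp4*, whose window is not shown, was called in neither genotype comparison.

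*Lox* itself, which crosslinks collagen and elastin, was measured at 9.56, 16.2, 14.5 and 7.56 CPM in WT(ND) mice, 12.2, 14.6, 11.8 and 7.94 CPM in *Glis3*-Pax8Cre(ND) mice, 46.5, 49.4, 37.9 and 64.7 CPM in WT(LID) mice and 25.8, 23.7, 23.3 and 12.0 CPM in *Glis3*-Pax8Cre(LID) mice. The WT(LID) mice were the highest and the ND groups overlapped almost fully. The diet raised *Lox* 4.16-fold in wild types (log2 fold change 2.06, SE 0.29, edgeR adjusted p = 5.63e-05), and it was 2.34-fold lower in *Glis3*-Pax8Cre(LID) mice than in WT(LID) (log2 fold change -1.23, SE 0.28, edgeR adjusted p = 0.00388). In knockouts the diet raised it 1.82-fold (log2 fold change 0.87, SE 0.28, edgeR adjusted p = 0.0343). That call was lost without any 1 of *Glis3*-Pax8Cre(ND) replicates 1, 3 and 4 and *Glis3*-Pax8Cre(LID) replicates 1, 2 and 3 (adjusted p 0.0568 to 0.0846), and with paired mice the adjusted p was 0.00429.

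*Loxl2*, which can crosslink collagen IV of basement membranes, was measured at 10.1, 13.9, 12.1 and 12.2 CPM in WT(ND) mice, 13.9, 14.7, 12.2 and 11.2 CPM in *Glis3*-Pax8Cre(ND) mice, 44.5, 42.0, 49.1 and 55.5 CPM in WT(LID) mice and 20.4, 24.8, 21.6 and 14.0 CPM in *Glis3*-Pax8Cre(LID) mice. Every WT(LID) mouse was above every other mouse. Its log2 fold changes were 1.98 (SE 0.16, edgeR adjusted p = 2.23e-07) for the diet in wild types, 0.64 (SE 0.16, edgeR adjusted p = 0.00785) for the diet in knockouts and -1.24 (SE 0.16, edgeR adjusted p = 2.60e-05) for the genotype under LID. The interaction was -1.35 (SE 0.22, edgeR adjusted p = 8.70e-04), so the wild-type response was the larger. *Loxl3*, a further member of the family, was measured at 4.95, 5.31, 6.39 and 5.34 CPM in WT(ND) mice, 5.65, 6.51, 6.18 and 4.50 CPM in *Glis3*-Pax8Cre(ND) mice, 9.25, 8.98, 11.2 and 10.5 CPM in WT(LID) mice and 5.75, 7.30, 6.51 and 5.80 CPM in *Glis3*-Pax8Cre(LID) mice. WT(LID) was again the one group without overlap with the rest. *Loxl3* rose in wild types (0.86, SE 0.13, edgeR adjusted p = 1.25e-04) and was lower in *Glis3*-Pax8Cre(LID) (-0.65, SE 0.13, edgeR adjusted p = 0.00166), while 13.1% of its exon bases are shared with *Htra2*. Its interaction (-0.71, edgeR adjusted p = 0.0233) was lost without any 1 of *Glis3*-Pax8Cre(ND) replicate 2, WT(LID) replicates 3 and 4 and *Glis3*-Pax8Cre(LID) replicates 1 and 4 (adjusted p 0.0506 to 0.0521).

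*Loxl1*, needed for elastic fibre upkeep, was measured at 24.5, 30.5, 22.9 and 24.5 CPM in WT(ND) mice, 23.5, 21.4, 16.2 and 9.88 CPM in *Glis3*-Pax8Cre(ND) mice, 40.7, 30.7, 35.3 and 41.0 CPM in WT(LID) mice and 15.7, 25.3, 19.8 and 9.32 CPM in *Glis3*-Pax8Cre(LID) mice. Under LID the genotypes were separate, and from WT(ND) to WT(LID) the lowest LID value was just above the highest ND value. *Loxl1* was lower in *Glis3*-Pax8Cre(LID) (-1.07, SE 0.28, edgeR adjusted p = 0.00831), and its wild-type diet response of 0.53 (SE 0.27, edgeR adjusted p = 0.135) was called on the 8 mice alone (adjusted p = 0.00571) and without both knockout mice numbered 4 (adjusted p = 0.0108).

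**Figure D3:**
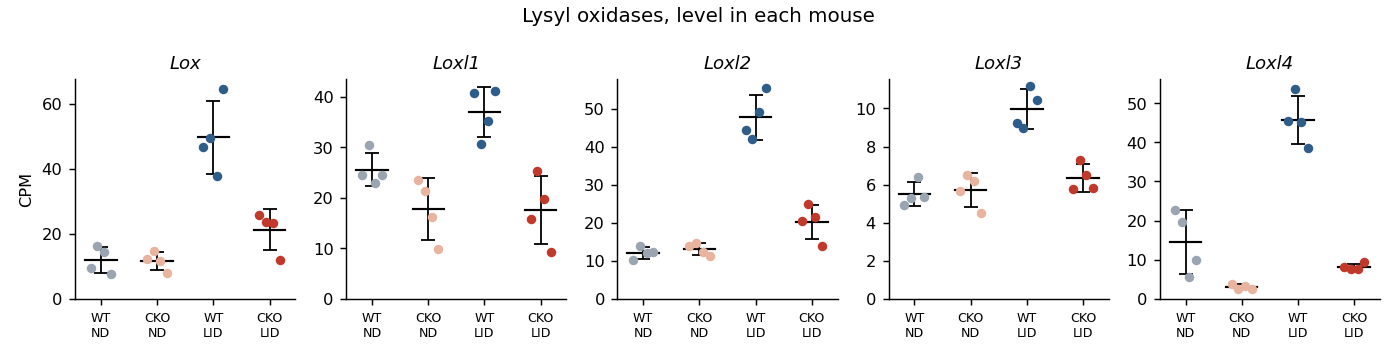
Level of the 5 lysyl oxidase genes in CPM (linear vertical axis from 0) in each mouse, with horizontal bars at the mean and error bars of 1 SD of the 4 mice of a group; CKO stands for *Glis3*-Pax8Cre. In all 5 panels WT(LID) is the highest group, and in the *Loxl4* panel the knockout mice lie between 2.48 and 9.37 CPM on both diets while WT(LID) lies between 38.6 and 53.6 CPM.

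The TIMPs, which hold the proteases in check, differed from one another. *Timp3*, the matrix-bound inhibitor that also blocks ADAMTS enzymes, was by far the most abundant member per exon length, at 225 CPM per kb over the 16 mice against 43.7 for *Timp2* and 17.8 for *Mmp14*, which came next. *Timp3* was measured at 1201, 1115, 1298 and 1415 CPM in WT(ND) mice, 948, 1301, 1279 and 788 CPM in *Glis3*-Pax8Cre(ND) mice, 1173, 1096, 978 and 1132 CPM in WT(LID) mice and 980.4, 728, 752 and 794 CPM in *Glis3*-Pax8Cre(LID) mice. The LID groups overlapped through WT(LID) replicate 3 and *Glis3*-Pax8Cre(LID) replicate 1, and the ND groups overlapped too. It was 1.35-fold lower in *Glis3*-Pax8Cre(LID) mice than in WT(LID) (log2 fold change -0.43, SE 0.15, edgeR adjusted p = 0.0426), a call that was lost without any 1 of WT(ND) replicate 1, WT(LID) replicates 1, 2 and 4 and *Glis3*-Pax8Cre(LID) replicates 2, 3 and 4 (adjusted p 0.0527 to 0.109). Scaling by library size alone also ended it.

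*Timp2*, which helps membrane-type MMPs to activate MMP2, was measured at 218, 225, 129 and 258 CPM in WT(ND) mice, 134, 132, 113 and 114 CPM in *Glis3*-Pax8Cre(ND) mice, 175, 188, 192 and 209.8 CPM in WT(LID) mice and 126, 132, 133 and 113 CPM in *Glis3*-Pax8Cre(LID) mice. Apart from WT(ND) replicate 3, the wild-type mice of both diets lay above 170 CPM and the knockout mice at or below 134 CPM. *Timp2* was lower in the knockout under LID (log2 fold change -0.60, SE 0.15, edgeR adjusted p = 0.00765) and on ND (-0.75, SE 0.15, edgeR adjusted p = 0.00363). Its diet responses were -0.12 (SE 0.15) in wild types and 0.03 (SE 0.15) in knockouts, neither called.

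*Timp1*, an inducible inhibitor, was low in WT(ND) alone. Its levels were 2.63, 2.42, 2.95 and 2.36 CPM in WT(ND) mice, 7.40, 6.70, 7.84 and 5.71 CPM in *Glis3*-Pax8Cre(ND) mice, 9.02, 6.24, 8.81 and 9.54 CPM in WT(LID) mice and 7.66, 10.5, 8.64 and 7.31 CPM in *Glis3*-Pax8Cre(LID) mice. The WT(ND) mice were the low ones, and the other 3 groups overlapped. *Timp1* was 2.67-fold higher in *Glis3*-Pax8Cre(ND) than in WT(ND) (log2 fold change 1.41, SE 0.16, edgeR adjusted p = 4.59e-05) and rose 3.24-fold with the diet in wild types (log2 fold change 1.70, SE 0.16, edgeR adjusted p = 1.06e-06). Under LID the genotypes differed by 0.02 (SE 0.15, edgeR adjusted p = 0.936), and the interaction was -1.39 (SE 0.22, edgeR adjusted p = 7.30e-04). The 250 bases before its start site (chrX:20869916-20870165, plus strand, GRCm38.p6) are shown as those of a member that was low in WT(ND) alone. They hold TGACG from -84 to -80, in capitals, which runs into an ACGTG from -82 to -78.
Timp1: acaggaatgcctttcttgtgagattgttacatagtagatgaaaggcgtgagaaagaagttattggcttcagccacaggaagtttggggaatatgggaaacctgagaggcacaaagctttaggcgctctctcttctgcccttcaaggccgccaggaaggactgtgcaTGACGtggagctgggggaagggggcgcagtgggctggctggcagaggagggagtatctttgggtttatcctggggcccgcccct
*Timp4* was low, at 2.38, 4.33, 4.31 and 4.41 CPM in WT(ND) mice, 3.33, 2.31, 1.37 and 1.53 CPM in *Glis3*-Pax8Cre(ND) mice, 1.23, 0.531, 1.69 and 0.960 CPM in WT(LID) mice and 1.37, 1.63, 0.829 and 0.545 CPM in *Glis3*-Pax8Cre(LID) mice. The WT(LID) mice lay below the WT(ND) mice, among which replicate 1 was far below the other 3. *Timp4* fell with the diet in wild types (-1.81, SE 0.40, edgeR adjusted p = 0.00181). Its knockout diet response, -0.94 (SE 0.39, edgeR adjusted p = 0.0920), was called with paired mice (log2 fold change -0.98, SE 0.24, adjusted p = 0.0274).

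Among secreted MMPs, 8 of 16 were tested, and 3 were lower and 1 higher in *Glis3*-Pax8Cre(LID) mice than in WT(LID). *Mmp11*, a furin-activated MMP with little action on collagens, was measured at 39.7, 39.6, 33.4 and 47.4 CPM in WT(ND) mice, 23.6, 26.3, 18.8 and 13.1 CPM in *Glis3*-Pax8Cre(ND) mice, 20.4, 15.1, 13.2 and 17.4 CPM in WT(LID) mice and 24.6, 15.8, 14.1 and 23.8 CPM in *Glis3*-Pax8Cre(LID) mice. The WT(ND) mice lay above all others, and the other 3 groups overlapped. *Mmp11* fell with the diet in wild types (-1.27, SE 0.22, edgeR adjusted p = 3.58e-04) and was lower in *Glis3*-Pax8Cre(ND) than in WT(ND) (-0.97, SE 0.22, edgeR adjusted p = 0.00742). It was the 1 member with a positive interaction (1.21, SE 0.31, edgeR adjusted p = 0.0201), which was lost without WT(LID) replicate 3 (adjusted p 0.0503). *Mmp28*, known in epithelia, was measured at 4.25, 5.09, 3.63 and 5.13 CPM in WT(ND) mice, 2.26, 2.94, 2.15 and 3.53 CPM in *Glis3*-Pax8Cre(ND) mice, 6.82, 6.66, 7.59 and 7.11 CPM in WT(LID) mice and 3.11, 2.64, 3.87 and 2.13 CPM in *Glis3*-Pax8Cre(LID) mice. Knockout mice lay below wild-type mice on each diet. *Mmp28* rose with the diet in wild types (0.64, SE 0.19, edgeR adjusted p = 0.0148). It was lower in the knockout under LID (-1.26, SE 0.20, edgeR adjusted p = 1.71e-04) and on ND (-0.73, SE 0.20, edgeR adjusted p = 0.0171), the ND call being lost without any 1 of WT(ND) replicates 2 and 4 and *Glis3*-Pax8Cre(ND) replicate 3 (adjusted p 0.0518 to 0.0558).

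Both gelatinases differed between genotypes under LID, in opposite directions. *Mmp2*, a gelatinase of mesenchymal cells, was lower in the knockout on both diets, with means of 36.3 ± 7.62 CPM in WT(LID) mice and 22.1 ± 5.06 CPM in *Glis3*-Pax8Cre(LID) and log2 fold changes of -0.72 (SE 0.20, edgeR adjusted p = 0.0124) under LID and -0.92 (SE 0.20, edgeR adjusted p = 0.00515) on ND. *Mmp9*, a gelatinase of leukocytes and other cells, was measured at 1.12, 1.55, 0.735 and 3.84 CPM in WT(ND) mice, 1.51, 1.21, 1.84 and 6.60 CPM in *Glis3*-Pax8Cre(ND) mice, 0.730, 0.172, 1.35 and 0.810 CPM in WT(LID) mice and 2.23, 2.77, 4.18 and 3.88 CPM in *Glis3*-Pax8Cre(LID) mice. The LID groups were separate, and the ND groups overlapped, with *Glis3*-Pax8Cre(ND) replicate 4 the highest of the 16 mice. *Mmp9* was 4.29-fold higher in *Glis3*-Pax8Cre(LID) mice than in WT(LID) (log2 fold change 2.10, SE 0.67, edgeR adjusted p = 0.0272), and the call was lost without any 1 of WT(LID) replicates 1, 2 and 4 and *Glis3*-Pax8Cre(LID) replicates 3 and 4 (adjusted p 0.0559 to 0.0636). The summed level of 6 neutrophil markers was 1.56 to 2.88 CPM in WT(LID) mice and 3.11 to 34.6 CPM in *Glis3*-Pax8Cre(LID), with 3 of the 4 tested higher there. The 34.6 CPM was that of replicate 1, the *Glis3*-Pax8Cre(LID) mouse with the lowest *Mmp9*, and the other 3 lay between 3.11 and 4.20 CPM. *S100a8* and *S100a9*, the defining ones, had means of 0.203 and 0.314 CPM in WT(LID) mice and of 0.520 and 0.946 CPM in *Glis3*-Pax8Cre(LID), and between 0 and 2 of the 6 were at 0 in a mouse. With means this low, most of the 34.6 CPM of replicate 1 came from other genes of the list. The part of neutrophils in the *Mmp9* difference was not tested.

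*Mmp12*, the macrophage elastase, was measured at 1.21, 1.85, 1.14 and 1.69 CPM in WT(ND) mice, 0.753, 1.16, 0.919 and 3.00 CPM in *Glis3*-Pax8Cre(ND) mice, 1.90, 2.19, 3.58 and 2.42 CPM in WT(LID) mice and 1.28, 0.586, 0.804 and 1.02 CPM in *Glis3*-Pax8Cre(LID) mice. Under LID the knockout mice were all below the wild-type mice. *Mmp12* was lower in *Glis3*-Pax8Cre(LID) (-1.45, SE 0.38, edgeR adjusted p = 0.00943), while the summed macrophage markers ranged over 214 to 233 CPM in WT(LID) mice and 194 to 261 CPM in *Glis3*-Pax8Cre(LID), with 1 of 6 higher and 0 lower. *Mmp19* rose with the diet in both genotypes, by 0.69 (edgeR adjusted p = 0.0114) in wild types and 0.82 (edgeR adjusted p = 0.00807) in knockouts, but 29.0% of its exon bases are shared with Gm47093 and *Tmem198b*.

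*Mmp12* belongs to a run of 10 *Mmp* genes on chromosome 9 of mm10, between 7272514 and 7699585, that was close to silent in these glands. Group means in it reached 2.52 CPM for *Mmp12*, 0.746 CPM for *Mmp13* and 0.745 CPM for *Mmp3*. *Mmp13*, an interstitial collagenase, and *Mmp3*, a stromelysin, were called in 0 of the 5 comparisons by edgeR and by DESeq2, with an unadjusted p under 0.05 in 0 and 2 of them. *Mmp1a* and *Mmp1b* had 0 counts in every mouse, and *Mmp7*, *Mmp8*, *Mmp10*, *Mmp20* and *Mmp27* had too few counts to be tested, with highest group means from 0.00449 CPM for *Mmp10* and *Mmp20* to 0.123 CPM for *Mmp27*. *Mmp27* was tested by DESeq2 and with no filter, and was called lower with the diet in wild types in both (adjusted p = 0.0443 and 0.0489). Outside the run, *Mmp21* (0.0130 CPM) and *Adamts19* (0.115 CPM) were not tested either. The bases TGANTCA, which AP-1 factors bind, were in 8 of the 36 member windows (22.2%) and in 6.75% of all windows, and all 8 belong to genes of this run. The *Mmp13* window is shown as an example (chr9:7272264-7272513, plus strand, GRCm38.p6), with the AP-1 motif from -35 to -29 and a TATA box from -16 to -11 in capitals.
Mmp13: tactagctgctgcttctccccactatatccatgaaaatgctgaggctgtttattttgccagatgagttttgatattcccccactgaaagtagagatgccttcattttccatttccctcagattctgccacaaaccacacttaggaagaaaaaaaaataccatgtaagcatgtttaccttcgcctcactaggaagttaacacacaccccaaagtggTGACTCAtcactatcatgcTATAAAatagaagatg
TATAAA was in 25.0% of member windows and in 12.4% of all windows.

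Of the 7 membrane-bound MMPs, 5 were lower and 1 higher in *Glis3*-Pax8Cre(LID) mice than in WT(LID). *Mmp14*, the main membrane-type collagenase and an activator of MMP2, was the most abundant protease of the family per exon length. It fell from 96.5 ± 11.4 CPM in WT(LID) mice to 57.9 ± 11.8 CPM in *Glis3*-Pax8Cre(LID) mice (log2 fold change -0.74, SE 0.14, edgeR adjusted p = 7.48e-04) and was not called in the other 4 comparisons. Its wild-type diet response, 0.32 (SE 0.14, edgeR adjusted p = 0.0730), was called on the 8 mice alone (adjusted p = 0.0120) and without any 1 of *Glis3*-Pax8Cre(ND) replicate 4, WT(LID) replicate 1 and *Glis3*-Pax8Cre(LID) replicate 2 (adjusted p 0.0299 to 0.0406). The *Mmp14* interaction was called without *Glis3*-Pax8Cre(ND) replicate 4 (-0.63, adjusted p = 0.0337) or *Glis3*-Pax8Cre(LID) replicate 2 (-0.67, adjusted p = 0.0161), and without the latter so was its fall with the diet in knockouts (-0.35, adjusted p = 0.0499). *Mmp15*, another membrane-type MMP, was measured at 94.7, 66.9, 73.0 and 99.3 CPM in WT(ND) mice, 37.8, 66.3, 49.6 and 22.8 CPM in *Glis3*-Pax8Cre(ND) mice, 38.0, 49.1, 59.0 and 49.4 CPM in WT(LID) mice and 13.5, 24.1, 24.3 and 13.9 CPM in *Glis3*-Pax8Cre(LID) mice. The *Glis3*-Pax8Cre(LID) mice lay below all wild-type mice, and among *Glis3*-Pax8Cre(ND) only replicate 4 reached down to their range. *Mmp15* was lower with LID in knockouts (-1.22, SE 0.29, edgeR adjusted p = 0.00763) and in wild types (-0.77, SE 0.29, edgeR adjusted p = 0.0428). It was also lower in the knockout under LID (-1.37, SE 0.29, edgeR adjusted p = 0.00260) and on ND (-0.92, SE 0.29, edgeR adjusted p = 0.0383). The wild-type diet call was lost without any 1 of WT(ND) replicates 1, 3 and 4, *Glis3*-Pax8Cre(ND) replicate 3 and WT(LID) replicates 1, 2 and 4 (adjusted p 0.0511 to 0.113), and the ND genotype call without any 1 of WT(ND) replicates 1 and 4, *Glis3*-Pax8Cre(ND) replicates 1, 3 and 4 and WT(LID) replicates 2 and 4 (adjusted p 0.0509 to 0.106).

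*Mmp17*, a lipid-anchored MMP, was measured at 1.78, 1.48, 2.53 and 1.67 CPM in WT(ND) mice, 3.20, 2.50, 2.16 and 2.21 CPM in *Glis3*-Pax8Cre(ND) mice, 4.85, 4.69, 5.11 and 5.70 CPM in WT(LID) mice and 2.16, 2.90, 2.61 and 2.32 CPM in *Glis3*-Pax8Cre(LID) mice. All WT(LID) mice lay above 4.6 CPM and all others at 3.20 CPM or less. It rose 2.73-fold with the diet in wild types (log2 fold change 1.45, SE 0.18, edgeR adjusted p = 1.68e-05), while the knockout means were 2.52 CPM on ND and 2.50 CPM under LID (edgeR adjusted p = 0.997), and the interaction was -1.45 (SE 0.25, edgeR adjusted p = 0.00162). Under LID *Mmp17* was 2.04-fold lower in the knockout (log2 fold change -1.03, SE 0.18, edgeR adjusted p = 4.60e-04). *Mmp16*, a membrane-type MMP, was measured at 4.72, 4.06, 2.71 and 3.48 CPM in WT(ND) mice, 4.20, 3.30, 4.34 and 2.84 CPM in *Glis3*-Pax8Cre(ND) mice, 1.32, 1.65, 1.67 and 1.51 CPM in WT(LID) mice and 1.94, 2.21, 2.72 and 2.25 CPM in *Glis3*-Pax8Cre(LID) mice. The WT(LID) mice were the lowest, and the *Glis3*-Pax8Cre(LID) mice lay above them and below the *Glis3*-Pax8Cre(ND) mice. *Mmp16* fell with the diet in wild types (-1.28, SE 0.19, edgeR adjusted p = 8.10e-05) and in knockouts (-0.68, SE 0.19, edgeR adjusted p = 0.0162), the latter with an adjusted p of 0.0512 once mice were paired. It was higher in *Glis3*-Pax8Cre(LID) mice than in WT(LID) (0.57, SE 0.19, edgeR adjusted p = 0.0330), a call lost without any 1 of WT(LID) replicates 1, 2, 3 and 4 and *Glis3*-Pax8Cre(LID) replicates 2, 3 and 4 (adjusted p 0.0504 to 0.101).

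*Mmp25*, a lipid-anchored MMP of leukocytes, was measured at 0.406, 0.425, 0.226 and 0.474 CPM in WT(ND) mice, 0.188, 0.448, 0.306 and 2.03 CPM in *Glis3*-Pax8Cre(ND) mice, 0.834, 1.02, 1.38 and 1.23 CPM in WT(LID) mice and 0.324, 0.244, 0.371 and 0.475 CPM in *Glis3*-Pax8Cre(LID) mice. Its highest value was in *Glis3*-Pax8Cre(ND) replicate 4, the mouse with the high thymocyte markers. *Mmp25* rose with the diet in wild types (1.53, SE 0.53, edgeR adjusted p = 0.0290), was lower in *Glis3*-Pax8Cre(LID) mice than in WT(LID) (-1.66, SE 0.54, edgeR adjusted p = 0.0284) and had an interaction of -2.65 (SE 0.75, edgeR adjusted p = 0.0317). Without *Glis3*-Pax8Cre(ND) replicate 4 the *Mmp25* interaction was -1.49. In that order the 3 calls were lost without any 1 of WT(ND) replicates 1, 2 and 3 and WT(LID) replicates 3 and 4 (adjusted p 0.0524 to 0.0728), without any 1 of WT(LID) replicates 3 and 4 and *Glis3*-Pax8Cre(LID) replicates 1, 2 and 3 (adjusted p 0.0562 to 0.0758), and without any 1 of WT(ND) replicates 1, 2 and 3, WT(LID) replicates 3 and 4 and *Glis3*-Pax8Cre(LID) replicates 1, 2 and 3 (adjusted p 0.0502 to 0.0609). *Mmp23*, anchored by its amino end, rose in wild types (0.84, edgeR adjusted p = 0.00231). It lay just inside the threshold in the LID genotype comparison (-0.52, edgeR adjusted p = 0.0494), outside which it fell without any 1 of WT(ND) replicates 1, 2 and 4, *Glis3*-Pax8Cre(ND) replicates 1 and 3, WT(LID) replicates 1, 2 and 4 and *Glis3*-Pax8Cre(LID) replicates 1, 3 and 4 (adjusted p 0.0522 to 0.153). *Mmp24* was under 1 CPM in every group, with its highest mean, 0.882 CPM, in WT(ND). It was called lower in the knockout on ND and lower with the diet in wild types. The ND call was lost without WT(ND) replicate 1 (adjusted p 0.0505). The diet call was lost without any 1 of WT(ND) replicates 1 and 2 and WT(LID) replicates 2 and 4 (adjusted p 0.0669 to 0.076).

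**Figure D4:**
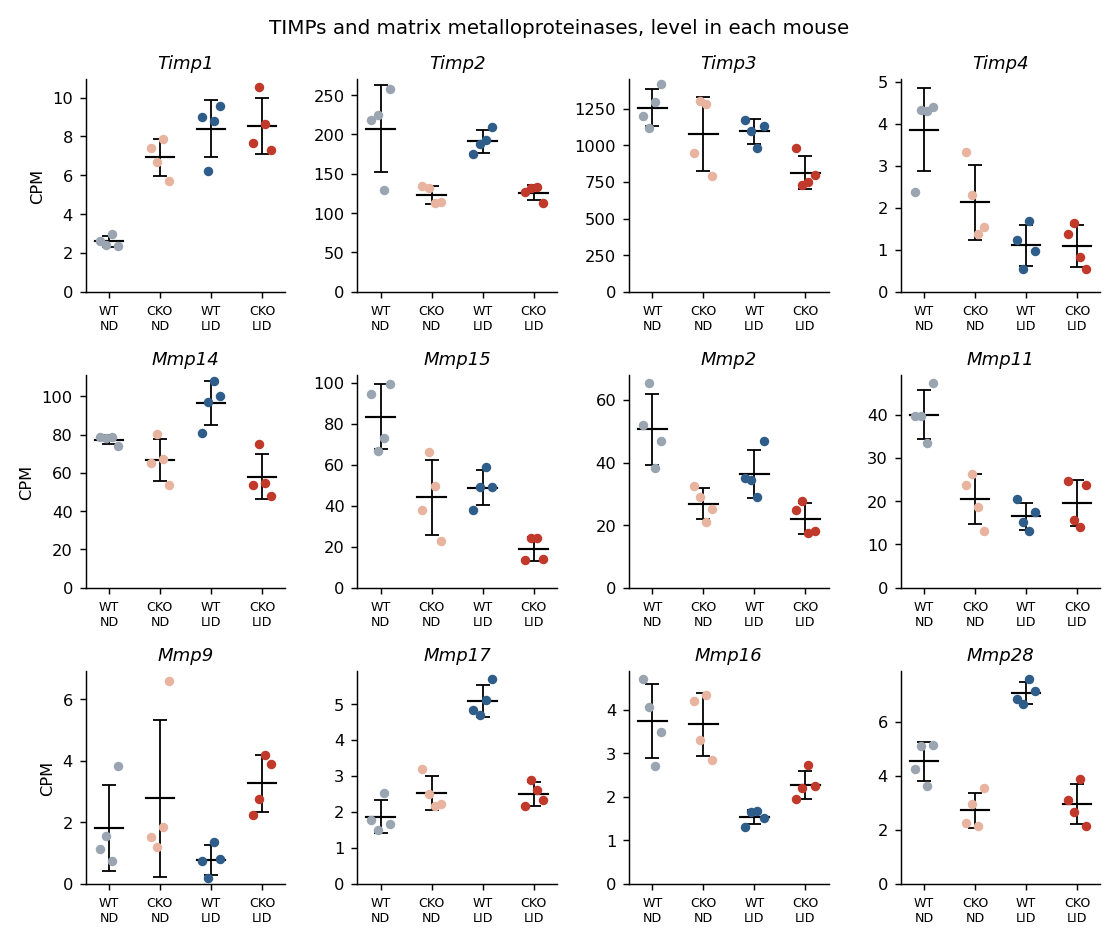
Level of the 4 TIMP genes and 8 MMP genes in CPM (linear vertical axis from 0, a scale of its own in each panel) in each mouse, with horizontal bars at the mean and error bars of 1 SD of the 4 mice of a group; CKO stands for *Glis3*-Pax8Cre. WT(ND) is the low group for *Timp1*, from 2.36 to 2.95 CPM, and the high group for *Mmp11*, from 33.4 to 47.4 CPM, while *Mmp17* is highest in WT(LID), from 4.69 to 5.70 CPM.

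The difference between the diet responses was called for 12 members. In 9 of them, *Adamts8*, *Adamts1*, *Adamts9*, *Mmp17*, *Timp1*, *Loxl2*, *Adamts12*, *Adamts2* and *Loxl3*, the wild-type gland had a called rise, and the knockout log2 fold change was smaller by 0.71 (*Loxl3*) to 3.96 (*Adamts8*). *Mmp25* had a called rise in the wild type, while its knockout mice other than *Glis3*-Pax8Cre(ND) replicate 4 lay between 0.188 and 0.475 CPM on both diets. *Adamts10* was called in the knockout alone, where it fell, and *Mmp11* in the wild type alone, where it fell. For *Timp1* the means under LID were 8.40 ± 1.47 CPM in wild types and 8.53 ± 1.44 CPM in knockouts, and those on ND were 2.59 ± 0.267 CPM and 6.91 ± 0.930 CPM.

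**Figure D5:**
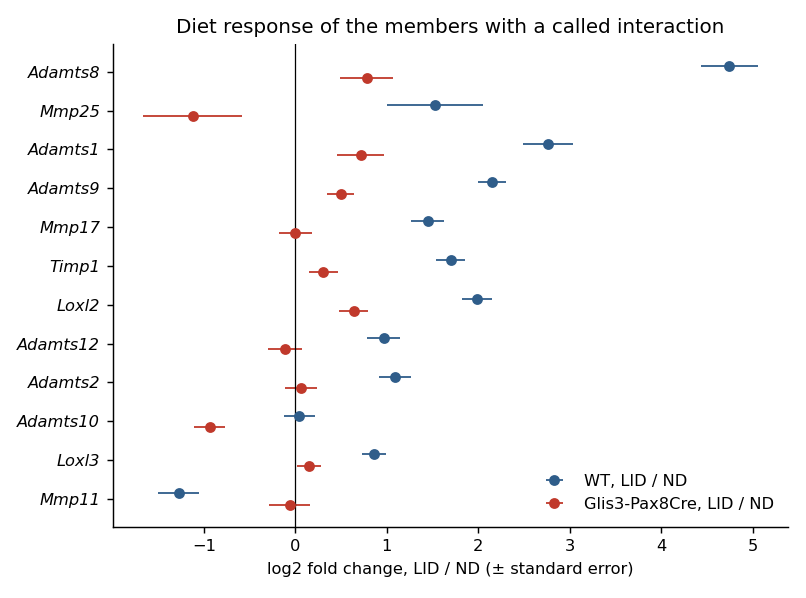
Log2 fold change with the low iodine diet (LID over ND) of the 12 members with a called interaction, in wild types (blue) and in *Glis3*-Pax8Cre mice (red); points are edgeR estimates and bars standard errors. The blue point of *Adamts8* lies at 4.74 and its red point at 0.78, and *Mmp11* is the only gene whose blue point lies left of its red point.

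The genes these enzymes act on moved as well. Of 11 genes for crosslinked collagens and elastic fibre parts, 11 rose with the diet in wild types (median log2 fold change 1.78) and 10 were lower in *Glis3*-Pax8Cre(LID) mice than in WT(LID) (median -1.19), beside the shares of all genes given above. *Eln*, elastin, fell from 201 to 62.9 CPM (log2 fold change -1.67, SE 0.22, edgeR adjusted p = 5.26e-05), *Fbn1*, fibrillin, from 304 to 104 CPM and *Col1a1*, a chain of collagen I, from 468 to 168 CPM. In *Glis3*-Pax8Cre(ND) against WT(ND) 1 of the 11 was higher and 1 lower.

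Of 8 tested genes for lecticans and other ADAMTS substrates, 3 were lower and 2 higher in *Glis3*-Pax8Cre(LID), with a median of -0.35. *Bcan*, brevican, had means of 1.13 CPM in WT(LID) mice and 27.9 CPM in *Glis3*-Pax8Cre(LID) (4.62, SE 1.24, edgeR adjusted p = 0.0128). *Hapln1*, a hyaluronan link protein, had means of 4.25 and 39.1 CPM in that order (3.20, SE 0.36, edgeR adjusted p = 1.29e-05), while *Vwf* was lower, as given above. The SE of *Bcan* is large, and these substrate genes were not examined with each mouse left out. Of 15 procollagen processing genes, 6 were lower and 1 higher (median -0.21), led by *Serpinh1*, a collagen chaperone (-0.98), *P3h3*, a prolyl hydroxylase (-0.75) and *Pcolce2*, an enhancer of propeptide removal (-0.73).

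The plasminogen system, which activates several MMPs, split in *Glis3*-Pax8Cre(LID), with 4 of 8 tested genes lower and 1 higher than in WT(LID) (median -0.47). *Plaur*, the urokinase receptor, had a log2 fold change of -2.42 (SE 0.19, edgeR adjusted p = 2.68e-07). *Plat*, tissue plasminogen activator, had a log2 fold change of 1.67 (SE 0.13, edgeR adjusted p = 2.03e-07). Of 12 genes for other protease inhibitors and for ADAMTS-like proteins, 6 were lower and 2 higher (median -0.59). They included *Adamtsl2*, an ADAMTS-like matrix protein without protease activity, at 54.5 CPM in WT(LID) mice and 5.78 CPM in *Glis3*-Pax8Cre(LID) (-3.24, SE 0.15, edgeR adjusted p = 1.70e-09), and its relatives *Adamtsl3* (1.38) and *Adamtsl1* (1.06), which were higher.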

How the data were processed

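RNA-Seq of thyroids from 16 mice was analysed from 1 table of raw counts per gene. According to the study's methods, the authors isolated total RNA with a micro column kit. For mRNA isolation and library generation they name a stranded mRNA kit and an RNA library kit, in that order. Libraries were sequenced on 1 of 2 Illumina instruments, which is not given per library, so this batch could not be fitted. The authors kept reads of mean quality over 20 and aligned these with STAR 2.5 to the mm10 genome. They assigned them to RefSeq genes by featureCounts 1.5.0-p1. The deposited counts were made without regard to strand, so reads on bases that genes share cannot be told apart by strand. The overlaps given above are those of GENCODE M21, not of the RefSeq models that were counted. The authors tested with DESeq2 at an adjusted p of 0.01 and a fold over 2, and here that threshold was an alternative.

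Groups came from the labels, with 4 mice each and 0 columns left unmapped. The 51 members were matched by symbol, and the members, marker and partner lists were chosen with earlier results of these data known. The tests used edgeR 4.0.16 in R 4.3.3 (filterByExpr, TMM, robust quasi-likelihood fit with 1 mean per group over the 16 mice, limma 3.58.1), with 5 comparisons and Benjamini-Hochberg adjustment over 16630 genes. The code was tested on simulated data. Standard errors are the log2 fold change divided by the square root of F. Values in every mouse are given for TIMP and lysyl oxidase genes and for other members with a mean of at least 1 CPM in a group and a called log2 fold change of at least 1 either way.

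Mice are separate samples, and no 2 of a group agreed within counting error. Deviations from group means correlated between knockout mice of the same number on the 2 diets (r from 0.21 to 0.65 in 4 pairs). In no other pair of groups were all 4 over 0.1. Between knockout mice of different number on the 2 diets, r ran from -0.44 to 0.36. Only the pairs numbered 3 (0.63) and 4 (0.65) lay above that range. The source of that pairing is not given, and for the knockout diet comparison the values with the number as a block stand beside the results they change. Alternatives were RLE normalization, library size alone, *Tg* left out, 2 other filters, only the 8 mice compared, the block, DESeq2 1.42.0, the stricter threshold and each mouse left out. The fit without both knockout mice numbered 4 was chosen after seeing the data. Exon lengths and overlaps came from GENCODE M21 and promoter windows from RefSeq (GRCm38.p6, the mm10 assembly).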

Additional observations from a re-analysis of the deposited data

Results flagged for a closer look

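Among the 112 groups of 4 mice formed by the members with printed values, 3 (2.68%) had a mouse far from its group by Dixon's criterion (a gap to the nearest mouse over 0.829 of the range), when chance alone gives about 5%. *Mmp9* was 6.60 CPM in *Glis3*-Pax8Cre(ND) replicate 4 and from 1.21 to 1.84 CPM in the other 3. *Mmp25* was 2.03 CPM in the same mouse and from 0.188 to 0.448 CPM in the others, and its interaction was -1.49 without that mouse. *Timp4* was 2.38 CPM in WT(ND) replicate 1 and from 4.31 to 4.41 CPM in the others.

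The diet response differed between the genotypes for 12 members, by edgeR's test of the interaction. The difference in log2 fold change, knockout less wild type, was -3.96 for *Adamts8*, -2.65 for *Mmp25*, -2.05 for *Adamts1*, -1.65 for *Adamts9*, -1.45 for *Mmp17*, -1.39 for *Timp1*, -1.35 for *Loxl2*, -1.08 for *Adamts12*, -1.02 for *Adamts2*, -0.98 for *Adamts10*, -0.71 for *Loxl3* and 1.21 for *Mmp11*.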

How the results depend on the processing

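Of 88 member calls over the 5 comparisons, 59 were kept under every alternative that tested the gene, other than the stricter threshold. Another 29 were lost under at least 1 such alternative, and 0 changed direction. The filter of at least 10 counts in every mouse left *Adamts8*, *Adamts13*, *Adamts14*, *Mmp24* and *Mmp25* untested, so their calls were not checked under it. At the stricter threshold the members higher and lower were 2 and 14 under LID, 1 and 1 on ND, 12 and 3 for the wild-type diet response, 1 and 2 for the knockout diet response and 0 and 6 for the interaction, while over all genes they were 485 and 834, 380 and 310, 1277 and 798, 487 and 345, and 123 and 480. On ND the higher count was 1 with no filter, with only the 8 mice, with the replicate block among 8 mice and with both knockout mice numbered 4 left out, and the lower count was 2 with that block. On the 8 mice alone all genes gave 872 higher and 781 lower on ND, 564 and 405 with the block, and 1321 and 1053 for the knockout diet response. With each mouse left out in turn, the members higher ranged from 2 to 4 under LID, 1 to 3 on ND, 4 to 9 for the knockout diet response and 0 to 2 for the interaction, and those lower in wild types with the diet from 3 to 6. The interaction was positive for 2 members by DESeq2 and with the replicate block over 16 mice. With the number as a block, the paired knockout diet comparison gave 8 members higher and 5 lower, and it changed no other call than those given with *Adamts1*, *Adamts9*, *Adamts15*, *Mmp16* and *Timp4*. In the other comparisons the mice share only a number. There the block ended the LID calls of *Mmp16* and *Timp3* (16 mice) and *Mmp23* (8 mice), the ND calls of *Adamts1*, *Mmp11*, *Mmp15*, *Mmp24*, *Mmp28* and *Timp2* and the wild-type diet call of *Adamts17* (8 mice). Library size alone ended the LID calls of *Mmp2*, *Mmp23* and *Timp3*, the wild-type diet calls of *Adamts5*, *Adamts20*, *Mmp19* and *Mmp28* and the knockout diet calls of *Adamts9* and *Lox*, and put the member medians at 0.07 on ND and -0.09 for the knockout diet response, each below or above the shifted median of all genes. In the other direction, 32 uncalled results of 23 members were called under at least 1 alternative. By DESeq2 these were the interactions of *Adamts3*, *Adamts4*, *Adamts15*, *Adamts16*, *Lox* and *Mmp12*, the knockout diet responses of *Adamts1*, *Adamts8* and *Timp3*, the wild-type diet responses of *Adamts7* and *Mmp27* and the LID difference of *Adamts20*. With the replicate block over 16 mice they were the interactions of *Adamts4*, *Adamts15* and *Lox*, the knockout diet responses of *Adamts1* and *Adamts15*, the wild-type diet responses of *Mmp2* and *Mmp14* and the LID differences of *Adamts6* and *Adamts20*. The causes of these changes were not tested. Members under about 1 CPM rest on few counts in the shallow libraries, and differences in them may have been missed at this depth.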
